A study of Danio rerio with 6 samples.

Results

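The muscle and heart microRNAs (miRNAs) of the zebrafish embryo were followed on arrays that held 243 probes named for zebrafish miRNAs. The probes were chosen by name: miR-1, miR-206, miR-499, and miR-133 with the letters a to c, with or without the star that marks the opposite strand of the hairpin. This gave 8 of the 243 probes, listed as dre-miR-1, dre-miR-133a, dre-miR-133a*, dre-miR-133b, dre-miR-133b*, dre-miR-133c, dre-miR-206 and dre-miR-499, and written below without the species prefix. Those of miR-1 and miR-133a are also named for 2 pufferfishes. Whole embryos were raised in system water (control), in 1% ethanol or in 1.5% ethanol from 4 h to 24 h after fertilisation. They were collected at 24 h, and each of the 3 groups had 2 biological replicates. The labels give about 200 embryos to a dish and neither a strain nor the number of embryos behind each RNA sample. The study asked which miRNAs ethanol alters at this stage. In RNA from whole embryos, fewer muscle cells and less of a miRNA in each cell cannot be told apart.

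miR-1 and miR-133 are the best known miRNAs of striated muscle. They are made from shared precursor transcripts under the control of muscle transcription factors, and in zebrafish they shape muscle gene expression and the order of the sarcomere. miR-206 shares its seed with miR-1 and is found mainly in skeletal muscle. miR-499 lies in a myosin heavy chain gene and marks slow muscle and heart. By the stage of collection most somites have formed and the heart has begun to beat. In RefSeq's annotation of the GRCz12tu assembly, 9 genes encode these miRNAs. The nearest miRNA gene to mir1-1 was mir133a-2, and that to mir1-2 was mir133a-1. In the same way mir206-1 lay next to mir133b and mir206-2 next to mir133c. Both mir1-2 and mir133a-1 lay within the extent of mib1, which encodes an ubiquitin ligase of the Notch pathway. mir499a lay within myh7ba, a myosin heavy chain gene. The probes for miR-1, miR-133a and miR-206 therefore each read the product of 2 genes, and near-identical mature sequences within the miR-133 group, or between miR-1 and miR-206, may share signal.

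Each probe was printed in 4 spots on each of the 6 arrays. The median local background of an array was 75 to 84 intensity units, and empty or blank spots had medians of 98 to 127. A signal limit was set on each array at the 95th percentile of its empty and blank spots, and a probe counted as above the empty spots where 50% or more of its kept spots exceeded it. This limit ran from 255.7 to 451.1 intensity units. It was highest on control replicate 1, where the quantification software also marked the most spots to be ignored, 11.7%, beside 4.64% to 7.96% on the other arrays. Of all 243 zebrafish probes, 28 met this on each of the 6 arrays and 84 on 1 array or more. Among markers of other tissues, 3 of 7 neural probes (miR-9, miR-132 and miR-153c) and 1 of 3 epidermal probes (miR-203a) met it on every array. None of the 4 blood probes (miR-144, miR-451, miR-142a-3p and miR-142a-5p), the 2 endothelial probes or the liver miR-122 met it on any. The miR-142b-5p probe was not counted among the blood probes.

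Of the 8 muscle and heart probes, miR-1 stood above the empty spots on all 6 arrays. miR-133a, miR-133a* and miR-133c did so on 1 array each. miR-133b, miR-133b*, miR-206 and miR-499 did so on none. For all but miR-1, the differences given below are therefore between readings that mostly did not stand clear of empty spots, and their sizes in RNA are not fixed. For miR-1, the share of the signal that is mature miR-1 was not tested.

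miR-1 gave a steady signal. In control embryos its spots had a median foreground of 646 and 466 intensity units. The medians were 629 and 632.5 at 1% ethanol and 611 and 409 at 1.5% ethanol, so the lower array of the controls and that of the 1.5% group stood below the rest. All 24 of its spots were kept and all 24 lay over the limit of their array. The spots of 1 array differed from each other by 1.02-fold to 1.16-fold from lowest to highest, and its spot SD ranked 31 from the smallest among the 243 zebrafish probes. Its array median was 4.17 to 6.39 times the median of the empty and blank spots. Between 97.6% and 99.2% of those spots were dimmer. With the limit at the 99th percentile it passed on 2 of the 6 arrays. With the limit at the 95th percentile, and spots marked to be ignored kept, it passed on 5.

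miR-206 was even from array to array but dim. Its array medians lay between 166 and 182 intensity units, from 1.43 to 1.81 times the empty and blank median, and 69.3% to 89.8% of empty and blank spots were dimmer. Its spots ran from 162 to 285, and 1 of 24 lay over the limit.

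miR-499 was more scattered. Its 3 kept spots read 294, 363 and 387 on control replicate 1, where their local background was 141 to 161, beside an array median of 84. The median of kept spots was 363 and 193 in control, 232 and 233.5 at 1% ethanol, and 145.5 and 140 at 1.5% ethanol. The medians of both 1.5% arrays were thus below those of the 4 other arrays, and between 65.3% and 91.9% of empty and blank spots were dimmer than the median of their array.

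The miR-133 probes were uneven between spots of 1 array. For miR-133a, 6 of 24 spots were marked to be ignored, among them one of 3905 on control replicate 1. Its kept spots ran from 169 to 467. The star strand miR-133a* read 585, 699, 233 and 152 on 1.5% ethanol replicate 1. The spots at 585 and 699 had a local background of 198 and 253, which was 2.57 and 3.29 times the median of that array. miR-133c, printed in the same blocks, read 430, 584, 163 and 200 on that array, and its spots at 430 and 584, in the same block as the bright spots of miR-133a*, had a local background of 185 and 235. Those 4 spots were the only kept spots of miR-133a* and miR-133c over the limit of that array. miR-133b had 2 of 24 spots over the limit, and miR-133b* had 0, with array medians from 87.5 to 161.5 that lay on both sides of the empty and blank median.

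**Figure D1:**
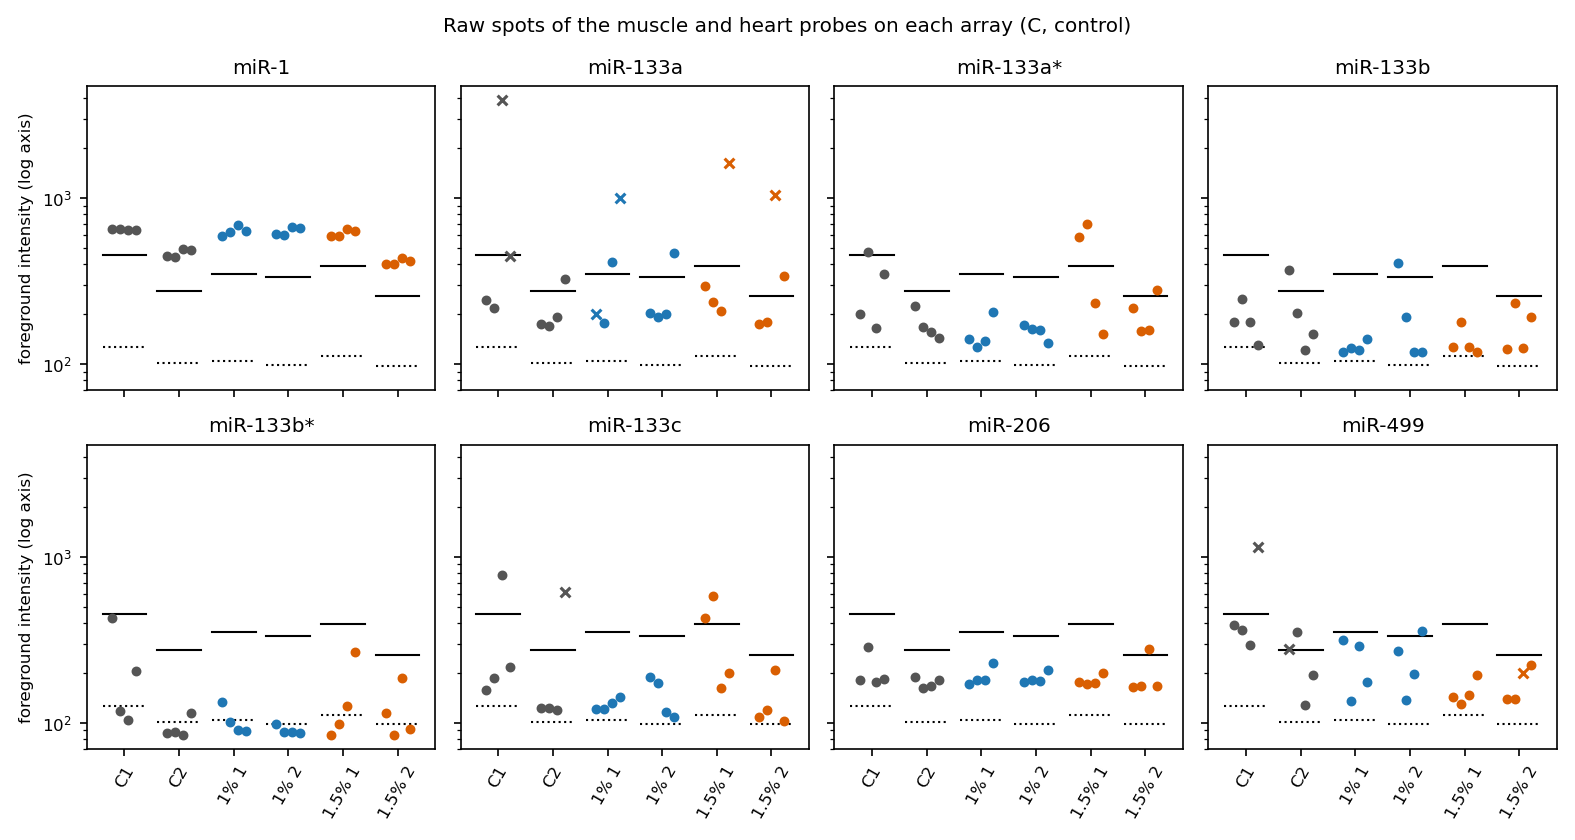
Raw foreground intensity (log axis) of the 4 spots of each probe on each of the 6 arrays. Dots are kept spots, crosses are spots marked to be ignored, and for the empty and blank spots of each array the dotted line gives the median and the solid line the 95th percentile. All 24 spots of miR-1 lie over the solid line, while the spots of miR-206 cluster between the lines, with 1 of 24 over the limit.

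For comparison between arrays, spots were corrected for background, their log2 values were quantile normalised over the miRNA spots, and the kept spots of a probe were averaged. Levels below are these normalised log2 intensities, and differences are log2 differences from one limma model of the 3 groups, with p-values adjusted by the Benjamini-Hochberg method over all 243 probes. With limma, 0 of 8 muscle and heart probes passed an adjusted p of 0.05 at 1% ethanol, where 0.412% of all zebrafish probes did. At 1.5% ethanol 0 of 8 passed, beside 0% of all probes, and between the doses 0 of 8 passed, again beside 0%. With both doses set together against control 0 of 8 passed, beside 0.412%. The test for any difference among the groups also passed 0 of 8, beside 0.412%. At an unadjusted p under 0.05 the members numbered 0 at 1% ethanol (6.17% of all probes), 1 at 1.5% ethanol (4.94%), 2 between the doses (7.41%), 0 for both doses together (3.29%) and 1 for any difference (5.76%).

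miR-1, a main miRNA of skeletal and heart muscle, was at 8.98 and 9.04 in control embryos. It was at 9.28 and 9.32 at 1% ethanol and at 9.16 and 8.81 at 1.5% ethanol. Both 1% arrays lay above both control arrays, and the 1.5% arrays lay on either side of the controls. Group means were 9.01 ± 0.04, 9.30 ± 0.03 and 8.98 ± 0.25 (SD, n = 2). In raw spot medians control and 1% ethanol overlapped, with 646 and 466 in control beside 629 and 632.5 at 1%. At 1% ethanol the log2 difference from control was 0.29 (SE 0.18, limma adjusted p = 0.874), with an unadjusted 95% interval from -0.15 to 0.73, or 0.899-fold to 1.66-fold. At 1.5% ethanol it was -0.03 (adjusted p = 0.977), with an interval from -0.47 to 0.41, or 0.723-fold to 1.33-fold. The arrays thus leave room for a change of this probe's normalised intensity within these bounds at either dose. The intervals set no bounds on the amount of miR-1 RNA. Between the doses it was -0.31 (adjusted p = 0.865). With the arrays set on their empty and blank spots in place of quantile normalisation, the 1% difference was -0.02 and that between doses 0.05. Relative to the median of all zebrafish probes the 1% difference was 0.19 to 0.36 under the 7 scalings. Those that only shift whole arrays, among them the scaling on empty and blank spots, all give 0.19 by construction. In the authors' deposited table miR-1 stood at 1.67 and 1.25 in control, 2.03 and 2.14 at 1%, and 1.79 and 1.70 at 1.5% ethanol. In that table all 4 ethanol arrays were above both controls, but the median of all zebrafish probes was also higher, by 0.27 at 1% and 0.32 at 1.5%.

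miR-206 was at 7.32 and 7.53 in control, 7.61 and 7.56 at 1% ethanol, and 7.43 and 7.63 at 1.5% ethanol. The 1% arrays lay above both controls by a small margin, and the 1.5% arrays overlapped them. The log2 differences were 0.16 (SE 0.17, adjusted p = 0.874) and 0.10 (SE 0.17, adjusted p = 0.973). The interval at 1.5% ethanol ran from -0.31 to 0.52.

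miR-133a, the partner of miR-1 in its precursor transcripts, was at 7.49 and 7.75 in control, 8.07 and 7.86 at 1% ethanol, and 7.69 and 7.73 at 1.5% ethanol. Here too both 1% arrays lay above both controls. The difference at 1% ethanol was 0.35 (SE 0.18, adjusted p = 0.874), and it was -0.03 when the spots marked to be ignored were kept. The groups overlapped without spots whose local background was over 1.5 times the median of their array. The second 1% array then fell from 7.86 to 7.60, within the control range of 7.53 to 7.71. The first 1% array rested on 2 kept spots of 177 and 411, so 1 spot decided its call above the empty spots. At 1.5% ethanol the difference was 0.09 (adjusted p = 0.977).

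miR-133b, made with miR-206, was at 7.16 and 7.64 in control, 7.01 and 7.48 at 1% ethanol, and 7.04 and 7.42 at 1.5% ethanol. With all kept spots its groups overlapped in all 3 comparisons, since the replicates of each group lay further apart than the group means. Its log2 differences were -0.15 at 1% and -0.17 at 1.5% ethanol (SE 0.27, adjusted p = 0.916 and 0.964). They were -0.39 and -0.41 without control replicate 1, and 0.09 and 0.07 without control replicate 2. miR-133c was at 7.72 and 6.89 in control, 7.03 and 7.13 at 1% ethanol, and 7.87 and 7.10 at 1.5% ethanol. It had the largest SE of the 8, 0.36, and its difference at 1.5% ethanol went from 0.18 to -0.10 when spots of high local background were left out.

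Of the star strands, miR-133a* was at 7.67 and 7.43 in control, 7.25 and 7.30 at 1% ethanol, and 8.11 and 7.71 at 1.5% ethanol. Both 1% arrays lay below both controls and both 1.5% arrays above them, with differences of -0.28 (adjusted p = 0.874) and 0.36 (adjusted p = 0.964). The 1% difference was -0.16 without control replicate 1 and -0.40 without control replicate 2. The 1.5% difference was 0.16 without replicate 1 of that group and 0.56 without replicate 2. Between the doses the log2 difference was 0.64 (SE 0.20, unadjusted p = 0.0190, limma adjusted p = 0.494). Without spots whose local background was over 1.5 times the median of their array, the first 1.5% array fell from 8.11 to 7.44, within the control range of 7.40 to 7.47, the 1.5% difference from control was 0.13, and the difference between doses was 0.29 (adjusted p = 0.943). miR-133b* was at 7.29 and 6.64 in control, 6.73 and 6.57 at 1% ethanol, and 6.93 and 6.94 at 1.5% ethanol. Its differences from control were -0.32 and -0.04 (SE 0.24, adjusted p = 0.874 and 0.977). They were 0.01 and 0.29 without control replicate 1, and -0.65 and -0.36 without control replicate 2. Between the doses both 1.5% arrays lay above both 1% arrays, with a difference of 0.28 (adjusted p = 0.869). Both star strands thus had a mean below control at 1% ethanol and a higher mean at 1.5% than at 1%. None of these differences passed. With all 6 arrays the order was not particular to star strands, since miR-133c also had -0.22 at 1% ethanol and 0.40 between the doses. These values of miR-133c rested on single arrays. The first was 0.19 without control replicate 1, and the second was 0.02 without 1.5% ethanol replicate 1. On that 1.5% array its bright spots lay in the same block as those of miR-133a*. A probe named for mouse miR-133a* had -0.01 at 1% ethanol and -0.28 between the doses. Its SE of 0.56 was too large to set these values against those of the zebrafish probes. With no normalisation between arrays, miR-133b* was at -0.16 between the doses, beside a median of -0.24 over all zebrafish probes. For miR-133b* the 1% arrays overlapped the controls, and the probe lay above the empty spots on no array.

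miR-499, the miRNA of slow muscle and heart, was at 7.79 and 7.78 in control, 7.78 and 7.78 at 1% ethanol, and 7.22 and 7.43 at 1.5% ethanol. Both 1.5% arrays lay below the 4 other arrays. The log2 difference at 1.5% ethanol was -0.46 (SE 0.16, unadjusted p = 0.0282, limma adjusted p = 0.932 over all probes) and did not pass, and at 1% ethanol it was 0.00 (adjusted p = 0.993). Between the doses it was -0.45 (adjusted p = 0.509). The probe lay above the empty spots on no array, so the size of this difference in RNA is not fixed. When spots of high local background were left out, control replicate 1 had no spot left. The difference was then -0.43 with control replicate 2 as the only control array (adjusted p = 0.984).

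**Figure D2:**
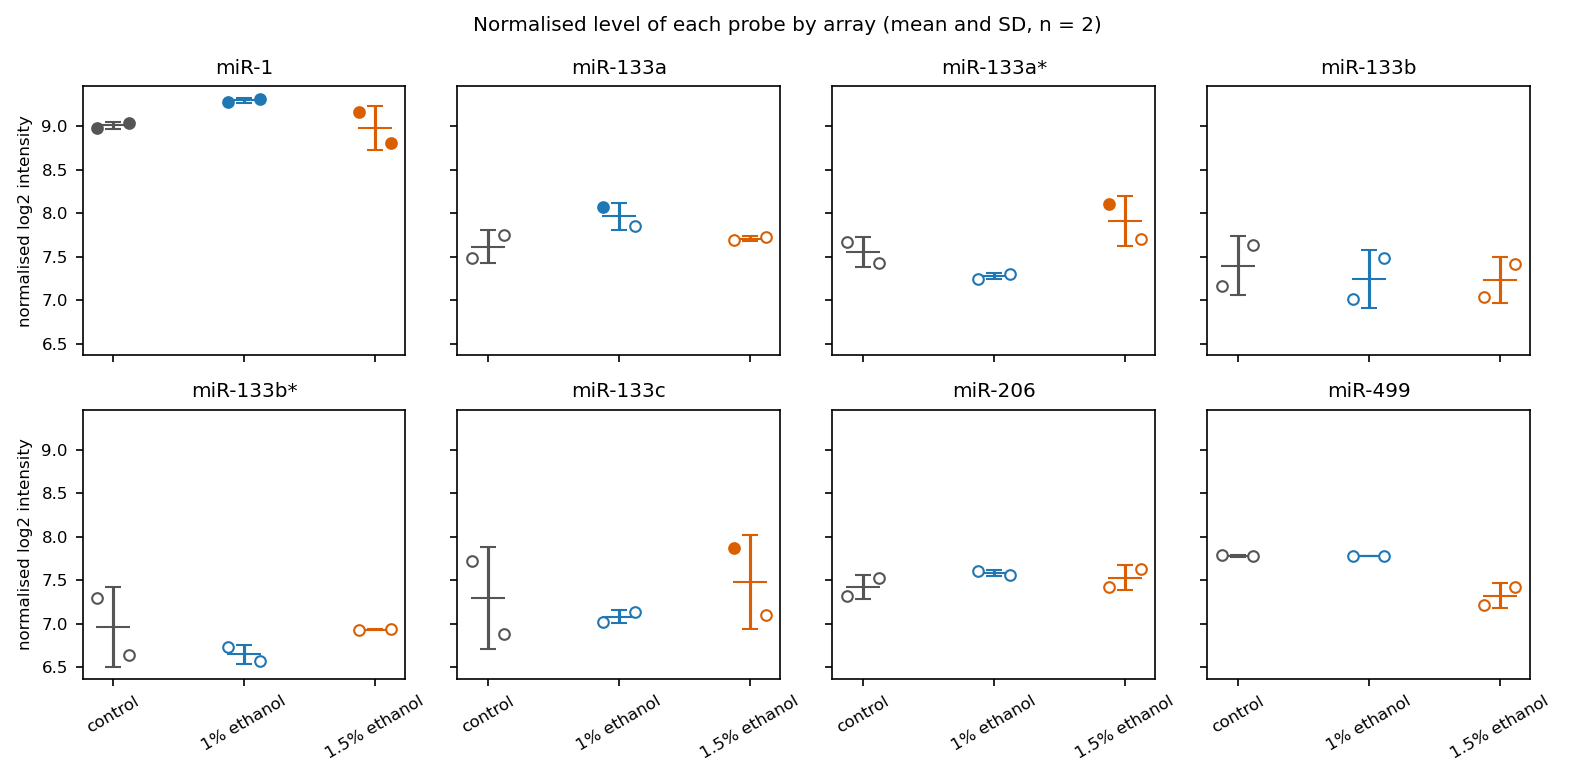
Normalised log2 intensity of each probe by group, with each array as a circle, the mean as a dash and the SD as a bar (n = 2). Filled circles mark arrays on which the probe counted as above the empty spots: all 6 for miR-1, 1 each for miR-133a, miR-133a* and miR-133c, and none for the other probes.

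Taken as a group, the signs of the members' differences leaned neither way. Most of these readings did not stand clear of empty spots, and miR-133 probes may share signal, so the count is only a description. At 1% ethanol 3 of 8 log2 differences were above 0 and 5 below, with a median of -0.08, beside a median of 0.00 over all 243 probes. At 1.5% ethanol 4 were above and 4 below, with a median of 0.03, beside 0.01. Groups that did not overlap were found for 3 members higher (miR-1, miR-133a and miR-206) and 1 lower (miR-133a*) at 1% ethanol, where 20.6% of all zebrafish probes were higher and 16.9% lower in this sense. At 1.5% ethanol 1 member was higher (miR-133a*) and 1 lower (miR-499), beside 11.5% and 17.3% of all probes. Between the doses 2 were higher and 3 lower, beside 15.2% and 16.5%. When spots of high local background were left out, miR-133a at 1% ethanol and miR-133a* at 1.5% ethanol overlapped control. Between the doses miR-133a then overlapped too. The reverse held for miR-133b, whose 1% arrays (7.00 and 7.13) then lay below both controls (7.19 and 7.62). The share over all probes was not counted for this setting. Both comparisons with control share the same 2 control arrays, so they are not independent readings.

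**Figure D3:**
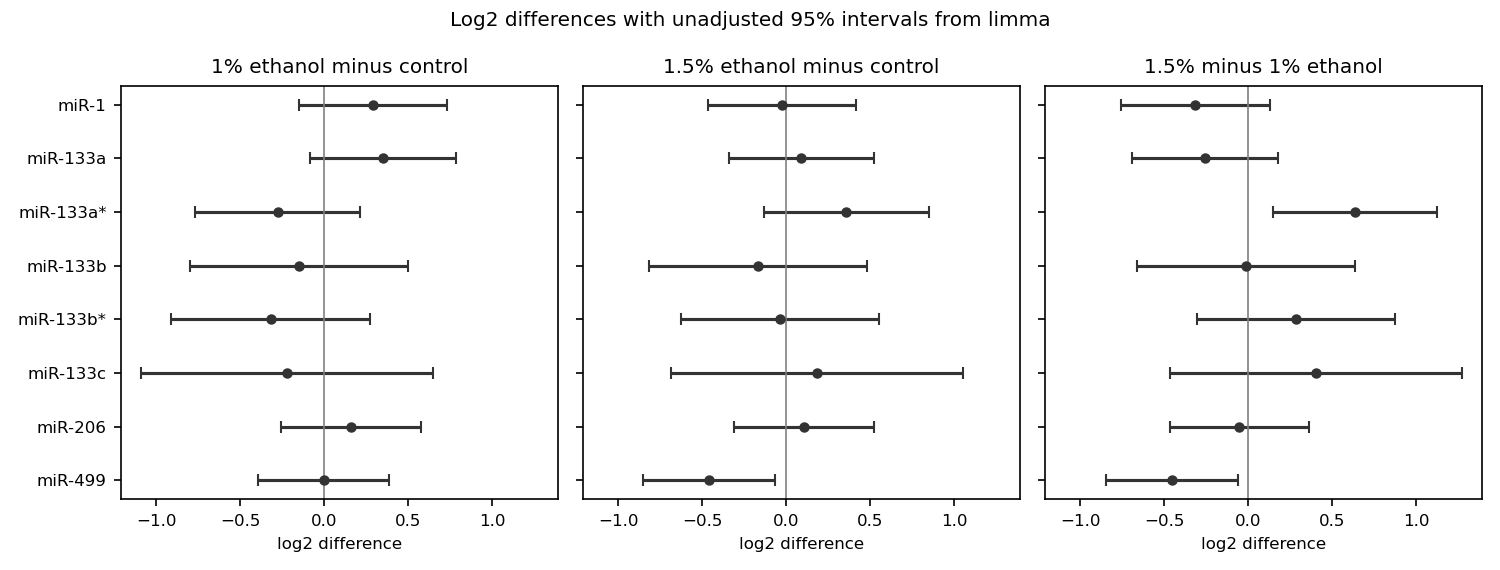
Log2 difference of each probe in 3 comparisons, as points with unadjusted 95% intervals from limma. Intervals leave out 0 for miR-499 at 1.5% ethanol and for miR-133a* and miR-499 between the doses, and none of these passed after adjustment over 243 probes (adjusted p = 0.932, 0.494 and 0.509).

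The arrays were spread over 3 slides, as read from the experiment names in the scanner files, with 2 arrays of different groups on each. Slide 1 held control replicate 1 and 1% ethanol replicate 1, and there miR-1 differed by 0.30, miR-133a by 0.59 and miR-206 by 0.28 (1% minus control). On the same slide miR-499 differed by -0.01, miR-133a* by -0.42 and miR-133c by -0.69. Slide 2 held control replicate 2 and 1.5% ethanol replicate 1, and there miR-1 differed by 0.12, miR-499 by -0.56, miR-133a* by 0.68 and miR-133c by 0.98 (1.5% minus control). Slide 3 held the second replicate of each dose, and there miR-1 differed by -0.51, miR-499 by -0.35 and miR-133a* by 0.41 (1.5% minus 1%). Where groups did not overlap, any pair of arrays from them differs in the same direction, so the within-slide sign adds nothing for those members. Among the others, the sign within a slide was opposite to that over all arrays for 4 members at 1.5% ethanol: miR-1, miR-133a at -0.06, miR-206 at -0.10 and miR-133b* at 0.29. Between the doses it was also opposite for miR-133c, at -0.03, and for miR-206, at 0.07. With slide as a block, which left 1 residual degree of freedom, 0 of 8 members passed in any comparison. The same fit called 3 of all 243 probes at 1% ethanol, 2 at 1.5% ethanol, 4 between the doses, 2 for both doses and 6 for any difference.

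The arrays also carried 8 probes named for miR-1, miR-133 or miR-499 of other species and for none of zebrafish. Of these, 0 met the signal limit on all 6 arrays and 1, the mouse miR-133a*, on 1 array. The mature miR-1 sequence is highly conserved among animals. The probe named for miR-1 of worm, mouse, human and other species had array medians of 91.5 to 151 intensity units. This was 0.821 to 1.19 times the empty and blank median, beside 4.17 to 6.39 times for the zebrafish probe. The rat miR-1 probe lay between 109 and 125.5, and the insect probe between 130 and 228. The miR-133a probe of mouse, human and other species, at 175.5 to 313, overlapped the zebrafish miR-133a probe, at 178 to 294. Its differences from control were -0.31 at 1% and -0.34 at 1.5% ethanol, opposite in sign to the 0.35 and 0.09 of the zebrafish probe, and none of the 4 passed. The sequences and designs of the probes were not used here, and the reason for the gap between miR-1 probes was not tested. How much of the zebrafish probe's signal is mature miR-1 was therefore not tested either. Fitted with all 1078 miRNA probes of any species, 0 of the 8 passed in any of the 3 comparisons (lowest limma adjusted p = 0.963), beside 0.186% of all probes at 1% ethanol, 0% at 1.5% ethanol and 0.0928% between the doses. The human miR-499 probe had differences from control of -0.25 at 1% and -0.13 at 1.5% ethanol, and the rat, mouse and cattle probe of -0.16 and 0.18. Neither passed the test, and neither met the signal limit on any array. The rat miR-1* probe had the highest and the lowest difference of the 8 probes. These were 0.69 at 1% ethanol and -0.72 between the doses (limma adjusted p = 0.963 and 0.976). On 1% ethanol replicate 1 its spots ran from 113 to 1412 intensity units.

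**Figure D4:**
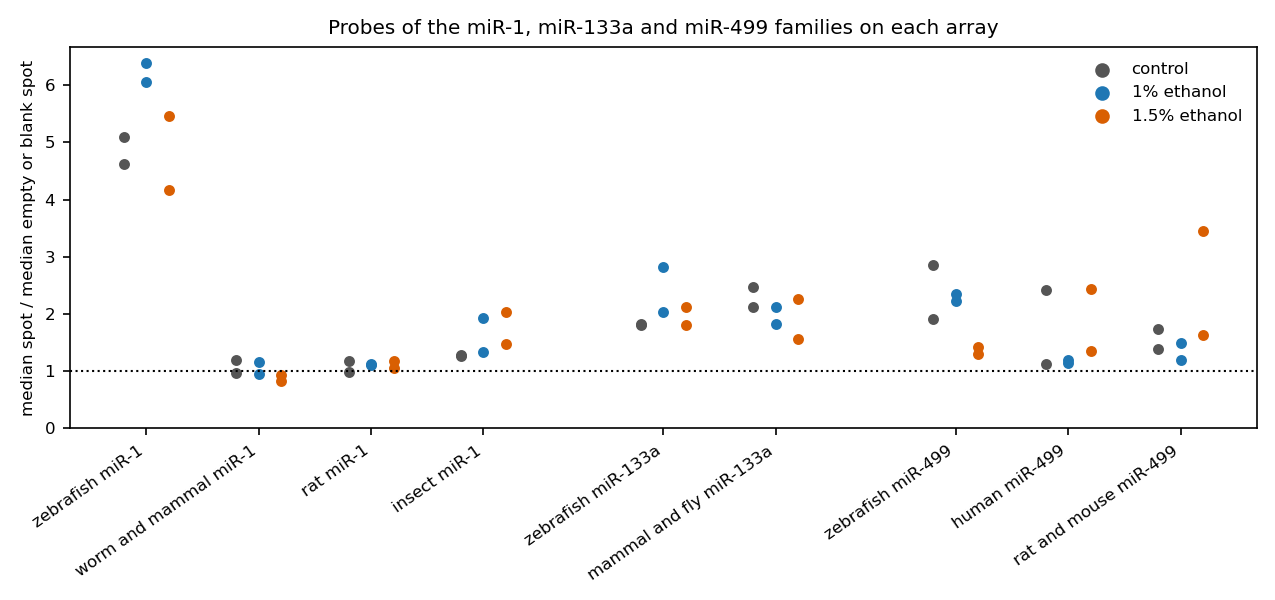
Median foreground of a probe's kept spots divided by the median of the empty and blank spots of the same array, with 1 point for each array. The dotted line marks the empty and blank median, and among the 4 miR-1 probes the zebrafish probe lies at 4.17 to 6.39 on all 6 arrays, while the probe shared by worm and mammals lies at 0.821 to 1.19.

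Other miRNAs with known roles in muscle or heart were read from a list of 16 families, which matched 26 zebrafish probes. Of these, 3 met the signal limit on all 6 arrays and 19 on none. At 1% ethanol 0 of 26 passed (16 above 0, 10 below, median 0.11, beside 0.00 for all probes), at 1.5% ethanol 0 of 26 (13 above, 13 below, median 0.00, beside 0.01), and between the doses 0 of 26, beside 0.412%, 0% and 0% of all zebrafish probes. At an unadjusted p under 0.05 there were 2 at 1% ethanol, 1 at 1.5% ethanol and 2 between the doses, beside 6.17%, 4.94% and 7.41% of all zebrafish probes. miR-21, which has a role in the zebrafish heart valve, was at 10.89 and 10.85 in control, 11.02 and 11.04 at 1% ethanol and 11.16 and 10.90 at 1.5% ethanol. Its difference was 0.16 at both doses (adjusted p = 0.874 and 0.964). miR-218a, which acts in zebrafish heart tube formation, had all 8 control spots and 4 of 8 spots at 1.5% ethanol saturated and 0 of 8 at 1%. Its 1% arrays lay far apart, at 14.29 and 15.63, and since the saturated control level is only a lower bound, no size is given for its difference. miR-23a was at 14.42 and 14.35 in control, 13.94 and 12.87 at 1% ethanol and 14.12 and 14.54 at 1.5% ethanol, a difference of -0.98 at 1% ethanol (adjusted p = 0.676). miR-214, which tunes Hedgehog signalling in zebrafish slow muscle, was picked out after its values were seen. It was at 7.68 and 7.43 in control, 6.99 and 6.96 at 1% ethanol, and 6.98 and 7.03 at 1.5% ethanol, above the empty spots on no array. All 4 ethanol arrays lay below both controls, with differences of -0.58 and -0.55 that did not pass (limma adjusted p = 0.676 and 0.932). Taken singly, 16.9% of all zebrafish probes were lower without overlap at 1% ethanol and 17.3% at 1.5%. The share lower at both doses was not counted.

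Only miR-1 was above the empty spots on 3 or more arrays, so likeness of pattern was sought for it alone, among 80 other zebrafish probes that met the limit on 1 array or more. The neural miR-9 followed miR-1 most closely over the 6 arrays (Pearson's r = 0.93), followed by miR-461 (r = 0.93) and miR-725 (r = 0.86). miR-9 was at 13.12 and 13.28 in control, 13.34 and 13.47 at 1% ethanol, and 13.23 and 13.01 at 1.5% ethanol. These are the closest of 80 over 6 points that share arrays and normalisation, and they are given as a description.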

How the data were processed

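Total RNA from whole embryos was labelled with Cy3 and hybridised to 6 one-colour arrays, per the labels. Per the file headers, each deposited scanner file gives 5040 spots with their raw foreground and local background intensity and no subtraction of background. The authors' deposited table is on a log2 scale. Of the 1440 values it holds, 1438 were rebuilt to within 0.001 as the mean log2 foreground of kept spots of 100 or more minus that of the Ncode_Control spots, and 18 values were missing, among them miR-133b* on 1% ethanol replicate 2. It served as an alternative.

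Background was corrected by normexp with an offset of 50 over all spots. Spots marked to be ignored were then left out, log2 values were quantile normalised over miRNA spots, and the spots of a probe were averaged. limma 3.58.1 in R 4.3.3 was fitted to all 243 zebrafish probes (two-sided, 3 residual and 3.15 prior degrees of freedom) with Benjamini-Hochberg adjustment. With 2 arrays against 2, the smallest two-sided p of an exact permutation test is 0.333, and the number of arrays limits the precision. Named were the 8 members, those of the other muscle or heart families above the empty spots on all arrays or past the threshold, and the 3 probes closest to a member that was above the empty spots on 3 or more arrays. The families were miR-21, miR-23, miR-26, miR-27, miR-29, miR-130, miR-138, miR-143, miR-145, miR-181, miR-199, miR-208, miR-214, miR-218, miR-221 and miR-222, and no zebrafish probe matched miR-208. Members and lists were chosen with earlier results of these data known. miR-214 was named outside the rule for naming, after its values were seen. RefSeq's table (GRCz12tu) was used only for gene names and neighbours.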

Additional observations from a re-analysis of the deposited data

Results flagged for a closer look

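miR-133a* was singled out because both 1% ethanol arrays lay below the control mean (by -0.30 and -0.25 on the log2 scale) and both 1.5% ethanol arrays above it (by 0.56 and 0.16). The difference between the doses, 1.5% minus 1% ethanol, was 0.64 in the limma model (unadjusted p = 0.0190, adjusted p = 0.494) and did not pass. It ran from 0.43 without 1.5% ethanol replicate 1 to 0.84 without 1.5% ethanol replicate 2. On the first 1.5% array, 2 of the 4 spots had a local background of 2.57 and 3.29 times the array median, and without such spots the difference was 0.29.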

How the results depend on the processing

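There were 22 alternatives: other scalings or none, the authors' table, background correction, spot averaging, ignored spots, probe filters, blocks and each array left out. Under them 0 of 8 members passed in any comparison. The filter to probes above the empty spots on 1 array or more left out miR-133b, miR-133b*, miR-206 and miR-499. These members thus had 21 alternatives each. The blocks by replicate and by position, the probe filter and the fit over probes of any species changed only p-values, not a member's difference. For a comparison of 2 groups, the same held for leaving out an array of the third group. The lowest limma adjusted p of a member was 0.182, for miR-133a* between the doses when arrays were set on their empty spots. Leaving out each array in turn gave 0 members past in every comparison. Position on the slide as a block and the limit on local background were chosen after seeing the data. Relative to the median of all probes, each member kept 1 sign under all 7 scalings in the 3 comparisons, except miR-133b* at 1.5% ethanol and miR-133b and miR-206 between the doses. Of these, no normalisation and the 75th percentile, Ncode_Control and empty-spot scalings only shift whole arrays, so their relative values are equal by construction. miR-499 at 1.5% ethanol ran from -0.74 to -0.30 over its alternatives. miR-133c turned sign between leaving out control replicate 1 (0.19 at 1%, 0.60 at 1.5% ethanol) and control replicate 2 (-0.64 and -0.23). miR-1 at 1.5% ethanol was -0.20 without replicate 1 of that group and 0.15 without replicate 2. With the signal limit at the 99th percentile, 1 member rather than 4 met it on any array, miR-1. The median of all probes moved by over 0.1 under the authors' table (0.27 and 0.32 at 1% and 1.5% ethanol), the Ncode_Control scaling (0.21 at 1.5%), the empty-spot scaling (-0.21 at 1%) and no normalisation (-0.14 at 1.5%). Between the doses it was -0.05 with quantile normalisation. It was 0.21 under the empty-spot scaling, -0.24 with no normalisation, 0.08 under the Ncode_Control scaling and -0.14 under the 75th percentile. Probes past the threshold over the whole table numbered 0 to 3 at 1% ethanol (reported 1), 0 to 2 at 1.5% (reported 0), 0 to 4 between the doses (reported 0), 0 to 2 for both doses (reported 1) and 0 to 6 for any difference (reported 1).

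Replicate numbers gave no pairing common to the 3 groups: the replicate 1 minus replicate 2 differences of 2 groups correlated over the 243 probes at -0.03 (control and 1%), 0.27 (control and 1.5%) and -0.04 (1% and 1.5%). In control and 1.5% ethanol, replicate 1 lay in the upper position of its slide and replicate 2 in the lower. At 1% ethanol this was reversed. The source of the 0.27 was not tested. With the replicate block 0 of 8 members passed, and the calls over the whole table were 1 at 1%, 0 at 1.5%, 0 between the doses, 0 for both doses and 0 for any difference. All members but miR-1 mostly did not stand clear of the brighter empty and blank spots, which limits what the arrays can show for them. What share of the miR-1 signal is mature miR-1 was not tested.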
